A study of Mus musculus with 6 samples.

Results

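The set described here is 10 immediate early or serum response genes of the mouse, Egr1, Fos, Jun, Junb, Ier2, Ier3, Atf3, Dusp1, Myc and Srf, measured in undifferentiated embryonic stem (ES) cells. The members were chosen by symbol, as all probe sets of the array that carry 1 of these names and no other. This gave 12 probe sets out of 45037, with Jun and Srf represented by 2 each, and 10 of the 18193 genes that have a probe set of their own. The set was proposed because Egr1 was already known from these arrays to be higher in clone A3. The clone means of Egr1 are therefore given as a description, without a test.

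The cells were WBS-ES clones, derivatives of the mouse ES line EBRTcH3 (EB3) that carry a 3xFLAG-tagged human coding sequence of GTF2IRD2, a member of the TFII-I family of transcription factors, at the ROSA26 locus behind a tetracycline-repressible promoter. Uninduced cells (0 hours) were kept in ES medium with serum, leukemia inhibitory factor (LIF) and tetracycline. Induced cells had been without tetracycline for 24 hours. The clones A3, A4 and A5 were each measured once in either state, so that 3 uninduced and 3 induced Affymetrix Mouse Genome 430 2.0 arrays were compared. Every line was 1 clone, all arrays including the uninduced ones came from cells that carry the human sequence, and no line without it was among the arrays. Removal of tetracycline and expression of the human sequence therefore cannot be told apart.

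Immediate early genes are transcribed within minutes of a stimulus such as serum or a growth factor, without the need for new protein. The kinases of the ERK cascade act on ternary complex factors, which sit beside serum response factor (SRF) on CArG boxes in the promoters of many of these genes, while actin dynamics act on SRF through the myocardin-related factors. The products include transcription factors (EGR1, FOS, JUN, JUNB, ATF3, MYC), a phosphatase that switches off MAP kinases (DUSP1) and small regulators (IER2, IER3). Their mRNAs are short-lived, so that a culture in steady serum usually holds far less of them than a culture just stimulated. ES cells secrete FGF4, which keeps the ERK cascade active in these cultures.

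Levels are log2 RMA values, on which a difference of 1 is a doubling, and array medians ran from 5.03 to 5.06. Correlations between arrays, over all probe sets, were 0.996 to 0.998. All 10 ES identity markers had a mean of at least 5, and their mean level lay between 11.78 and 11.81 in every array. Of 10 measured fibroblast and feeder markers 3 had a mean of at least 5, Thy1 (6.50), Pdgfrb (5.24) and Dcn (5.05). The list averaged 4.41 to 4.47, and its lowest gene was the fibrillar collagen gene Col3a1 at 2.56. Added poly-A spikes averaged 6.58 and 6.91 on the arrays of clone A3, against 6.06 to 6.57 on the others. They were also higher in the induced array of each clone. They rose from 6.58 to 6.91 in A3, from 6.42 to 6.51 in A4 and from 6.06 to 6.57 in A5. The part of these differences in the results that set A3 apart, or in those on induction, was not tested. The 18S RNA controls varied widely, from 7.42 to 11.57, with the arrays of A3 inside that range at 8.80 and 10.10, while the 3' minus 5' signal of Actb stayed at 0.27 to 0.36. Mouse Gtf2ird2, which is not the human coding sequence, read 6.33, 6.04 and 6.36 uninduced and 6.38, 6.51 and 6.37 induced in A3, A4 and A5. The expression of the human sequence itself was not analysed here.

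The promoters of the members were searched for the sites through which these factors act, since the question was whether the genes vary together. RefSeq promoter windows (GRCm38.p6, 250 bases before to 50 after the start) were matched for 7 of the 10 genes, all but Egr1, Ier2 and Myc. The motifs were the CArG box of SRF, the letters TGACTCA and TGACGTCA bound by AP-1 and by the CREB and ATF factors, and GCGTGGGCG and GCGGGGGCG bound by the EGR family, on both strands. The promoter of Srf, at chr17:46556203-46556275 on the minus strand, held 2 CArG boxes and 1 GCGGGGGCG. That of Dusp1, at chr17:26508596-26508627 on the minus strand, held 1 TGACGTCA. Both are shown because they are the members' windows with a match, and capitals mark the motif letters.
Srf, from 113 to 41 bases before the start: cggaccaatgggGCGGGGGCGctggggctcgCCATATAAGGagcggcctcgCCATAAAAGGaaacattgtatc
Dusp1, from 155 to 124 bases before the start: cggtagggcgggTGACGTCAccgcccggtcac
Among 32851 promoter windows of equal length, 1.63% held a CArG box and 6 windows held 2 or more. TGACTCA was in 5.20%, TGACGTCA in 1.79%, GCGTGGGCG in 0.612% and GCGGGGGCG in 2.91%. The windows of Fos, Jun, Junb, Ier3 and Atf3 held none of these letters, which says only that they are not within these windows.

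Egr1, a zinc finger transcription factor induced by serum, was the member that varied most. Clone A3 read 9.08 uninduced and 8.86 induced. The levels were 7.46 and 7.50 for A4, and 7.91 and 7.52 for A5. Both A3 arrays lay above the other 4, and the clone means were 8.97, 7.48 and 7.71 for A3, A4 and A5. A3 exceeded the mean of the other clones by 1.37 ± 0.10 (SE) on the log2 scale, or 2.59-fold. The states overlapped, at 8.15 ± 0.83 uninduced and 7.96 ± 0.78 induced (SD, n = 3 clones each). Induced minus uninduced was -0.22 (A3), 0.03 (A4) and -0.39 (A5), and the mean difference of -0.19 had a 95% interval of -1.24 to 0.86. With the clone as a block the interval narrowed to -0.40 to 0.02, since most of the spread within a state lay between clones.

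**Figure D1:**
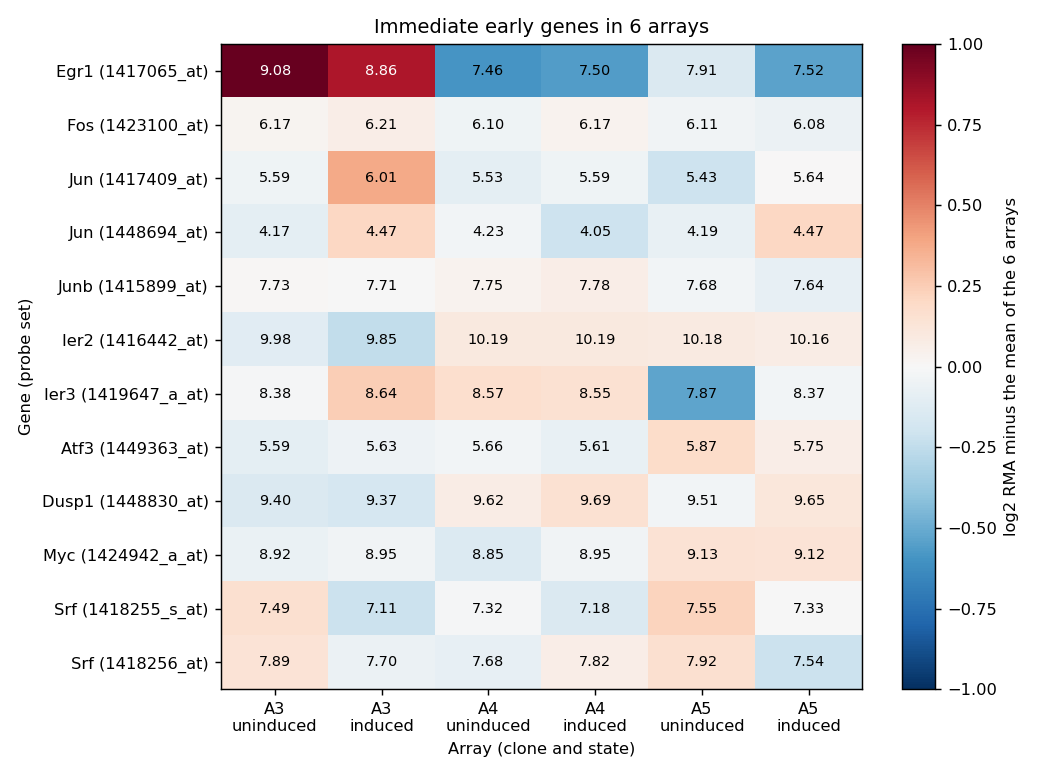
Log2 RMA level of each of the 12 probe sets (rows) in each of the 6 arrays (columns); the number is the level and the colour is its distance from the mean of that probe set's 6 arrays. The 2 arrays of clone A3 are dark red for Egr1, at 9.08 and 8.86, and no other member has that pattern.

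The AP-1 genes encode the partners of the FOS and JUN dimer. Fos, the best known immediate early gene, held the narrowest range with Junb. It measured 6.17, 6.10 and 6.11 in uninduced A3, A4 and A5 and 6.21, 6.17 and 6.08 in the induced arrays. The states overlapped, and the difference of 0.03 had a 95% interval of -0.13 to 0.19. Junb, which forms AP-1 dimers that are weaker activators than those with JUN, measured 7.73, 7.75 and 7.68 uninduced and 7.71, 7.78 and 7.64 induced. Its difference was -0.01, with an interval of -0.17 to 0.15. For both genes all 6 arrays lay within 0.15 of each other.

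Jun, the core subunit of AP-1, read higher after induction in each clone by its brighter probe set, 1417409_at. The uninduced levels were 5.59, 5.53 and 5.43 in A3, A4 and A5, and the induced ones 6.01, 5.59 and 5.64. Induced A3 stood highest, and induced A4 did not exceed uninduced A3, so that the states overlapped. The differences within the clones were 0.42, 0.06 and 0.21, and their mean of 0.23 had a 95% interval of -0.04 to 0.49 (limma adjusted p = 1.00), or of 0.03 to 0.42 with the clone as a block (adjusted p = 0.843). The other probe set of Jun, 1448694_at, whose mean of 4.26 is under 5, disagreed in A4. It gave 4.17, 4.23 and 4.19 uninduced and 4.47, 4.05 and 4.47 induced, higher values in induced A3 and A5 and a difference of -0.18 in A4.

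Atf3, a stress-induced partner of JUN, measured 5.59, 5.66 and 5.87 uninduced and 5.63, 5.61 and 5.75 induced. The difference was -0.04, with an interval of -0.25 to 0.17. A5 held the highest value in either state, and the clone term did not pass the threshold (limma F-test, adjusted p = 0.435).

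Ier2, a nuclear immediate early protein, and Dusp1, the MAP kinase phosphatase, were the members whose 2 arrays of clone A3 lay below the other 4. Ier2 measured 9.98, 10.19 and 10.18 uninduced and 9.85, 10.19 and 10.16 induced. Dusp1 measured 9.40, 9.62 and 9.51 uninduced and 9.37, 9.69 and 9.65 induced. The gap was small for both genes. A3 minus the mean of A4 and A5 was -0.27 ± 0.07 (SE) for Ier2 and -0.23 ± 0.08 for Dusp1, and neither passed the clone test (adjusted p = 0.229 and 0.289). Induced minus uninduced was -0.05 and 0.06, with intervals of -0.30 to 0.20 and -0.17 to 0.30.

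Ier3, an early response gene tied to survival under stress, had the widest spread of the members after Egr1. Its level was 8.38, 8.57 and 7.87 in uninduced A3, A4 and A5, and 8.64, 8.55 and 8.37 in the induced arrays. Uninduced A5 was the lowest array, and the states overlapped. The clones differed in their response, at 0.26, -0.02 and 0.50, and the mean of 0.25 had an interval of -0.13 to 0.63, or of 0.02 to 0.48 with the clone as a block (adjusted p = 1.00 and 0.843).

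Myc, a growth regulator that is also part of the ES cell state under LIF, stayed within 0.28 over the arrays. It measured 8.92, 8.85 and 9.13 uninduced and 8.95, 8.95 and 9.12 induced. A5 was highest in either state, and the difference between states was 0.04, with an interval of -0.18 to 0.25.

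Srf, the regulator of many of the other members, was lower in the induced array of every clone by the probe set 1418255_s_at. The levels were 7.49, 7.32 and 7.55 uninduced and 7.11, 7.18 and 7.33 induced for A3, A4 and A5. Induced A5 read slightly above uninduced A4, so that the states overlapped by this pair alone. The differences were -0.38, -0.13 and -0.22. Their mean of -0.25 had an interval of -0.45 to -0.04 and an unadjusted limma p of 0.0253, which became 1.00 after adjustment. The second probe set, 1418256_at, gave 7.89, 7.68 and 7.92 uninduced and 7.70, 7.82 and 7.54 induced. Induced A3 and A5 read lower, A4 read higher by 0.15, and the mean difference was -0.14 with an interval of -0.37 to 0.08. The promoter letters of Srf, with its 2 CArG boxes, are those printed before the values.

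Across the members, none of the 12 probe sets passed the limma test for induction, against 0% of the 45037 probe sets. With the clone as a block both counts were also 0. At an unadjusted p under 0.05 there was 1 of the 12 member probe sets (3 with the block), against 1404 of the 45037 probe sets (2597 with the block). The members split into 6 with a higher and 6 with a lower mean in induced cells. Their median difference was 0.0093 on the log2 scale, beside -0.0037 for all probe sets. No member had all induced arrays above, or all below, the uninduced ones, which 3.35% and 4.61% of all probe sets had. A common sign in all 3 clones was held by 2 of the 12, Jun 1417409_at upward and Srf 1418255_s_at downward, against a background of 25.9%.

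The precision limits what can be said of differences that small. The 95% intervals of the fit without a block had half-widths of 0.16 (Fos) to 1.05 (Egr1), with a median of 0.23. They excluded a 2-fold difference in either direction for 11 of the 12 probe sets, all but Egr1, and a 1.5-fold difference for 10. With the clone as a block the interval of Egr1, at -0.40 to 0.02, excluded a 2-fold difference too.

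**Figure D2:**
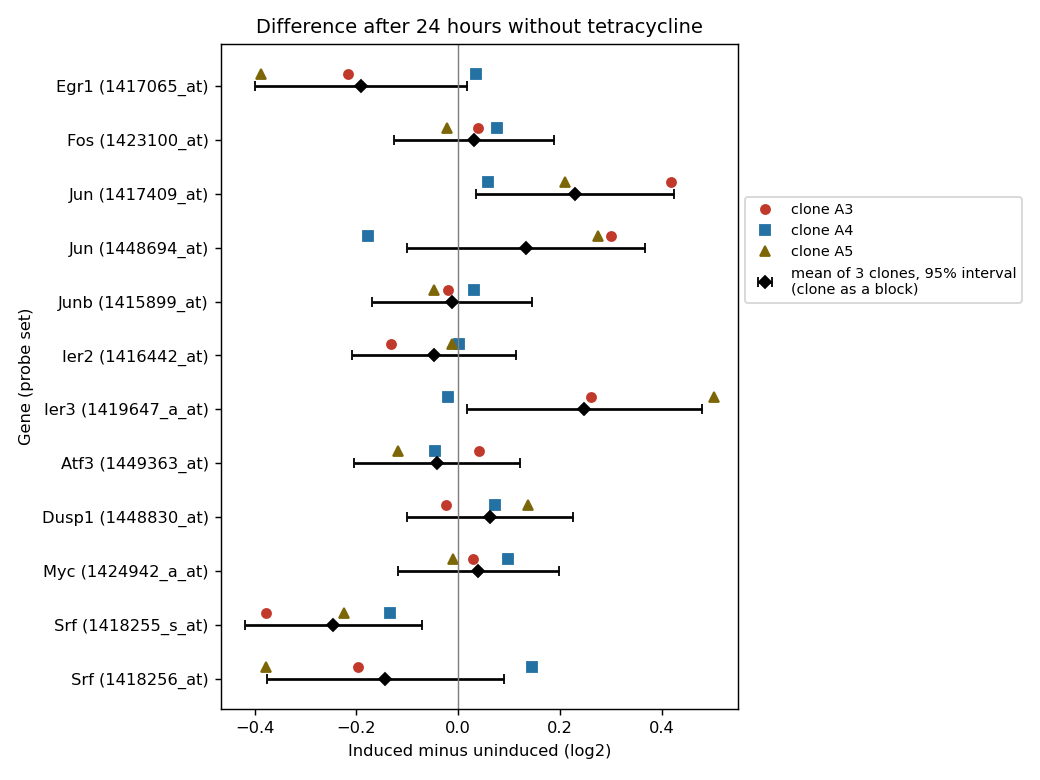
Induced minus uninduced (log2) of each probe set in clone A3 (circles), A4 (squares) and A5 (triangles), with the mean of the 3 clones and its 95% interval from the fit with clone as a block (black). Intervals of Jun 1417409_at, Ier3 and Srf 1418255_s_at lie off 0, with adjusted p of 0.843 each, and the clones disagree in sign for 10 of the 12 probe sets.

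Between clones, the 11 probe sets other than that of Egr1 were tested with limma's F-test of the clone term, with induction in the model. Of these 0 passed, against 2.18% of all probe sets. An unadjusted p under 0.05 was reached by 3 of the 11 probe sets. Beside it stands a count of genes and not of probe sets, 3163 of the 18193 genes taken by 1 probe set each. The lowest adjusted p values were those of Ier3 (0.191), Ier2 (0.229) and Dusp1 (0.289). With a prior variance that follows intensity, Ier2 (adjusted p = 0.0259) and Ier3 (0.0344) passed, and so did 2641 of all 45037 probe sets. Egr1 was the member whose A3 arrays were both above the other 4, which 12.1% of all probe sets had, and Ier2 and Dusp1 were the members with both below, which 13.5% had.

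Whether the members vary together was described by the correlation of their levels over the 6 arrays, with 1 probe set per gene. These are 3 clones in 2 states and not 6 independent samples, so no p is given. Of the 45 pairs of genes 21 had a Pearson r above 0, the median was -0.03, and the range ran from -0.95 to 0.88. Only Ier2 with Dusp1 (0.88) and Atf3 with Myc (0.83) exceeded 0.8. Egr1 ran against Dusp1 (-0.95) and Ier2 (-0.90) and with Fos (0.69) and Jun (0.52). Without the A3 arrays these values were -0.89 for Dusp1, -0.24 for Ier2, -0.15 for Fos and -0.81 for Jun, so that the sign of Fos and Jun turned. Against this stands a median size of 0.57 for the correlation of Egr1 with 20441 other probe sets whose mean is at least 5. After each clone's mean was removed, the median over the 45 pairs was 0.07, that of Ier2 with Dusp1 was also 0.07, and that of Atf3 with Myc was -0.16. Without the A3 arrays the median was -0.08, Ier2 with Dusp1 fell to 0.18 and Atf3 with Myc was 0.81. In response to induction, 7 pairs shared their sign in all 3 clones and 5 had opposite signs in all 3. By signs and correlations, the 10 genes showed no common direction over clones or on induction. The arrays are few for such a description. With clone means removed each r rests on 1 difference per clone, and without A3 on the arrays of A4 and A5 alone. Fos and Junb also varied little, each with an SD of 0.05. The median SD was 0.10 for probe sets whose mean is at least 5. Whether the genes share regulation was not tested.

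The genes whose pattern was nearest to Egr1 were found by the root mean square difference of the levels over the 6 arrays, after each probe set's mean was removed. Dpysl3, which encodes a protein of growing neurites, was nearest, at 0.110 on the log2 scale. Its clone means were 8.70, 7.07 and 7.42 for A3, A4 and A5, with both states of A3 at 8.68 or above and the other 4 arrays at 7.50 or below. Spink1, a secreted trypsin inhibitor, followed at 0.148, and Rpe, an enzyme of the pentose phosphate pathway, at 0.170. The next were Mex3b (0.184), Sccpdh (0.187), Ttn (0.190), Armcx4 (0.193), Apod (0.202), Clu (0.209) and Tspan2 (0.224). The other members lay at 0.594 (Jun 1417409_at) to 0.788 (Ier2), around the median of 0.673 for all 20441 probe sets compared. Of the other members only Jun 1417409_at, Srf 1418256_at, Fos, Jun 1448694_at and Junb were nearer to Egr1 than that median. By this measure a probe set that hardly varies also lies near the median, so a place just below it is no likeness to Egr1. Junb, at 0.669, had a Pearson r of -0.002 with Egr1.

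**Figure D3:**
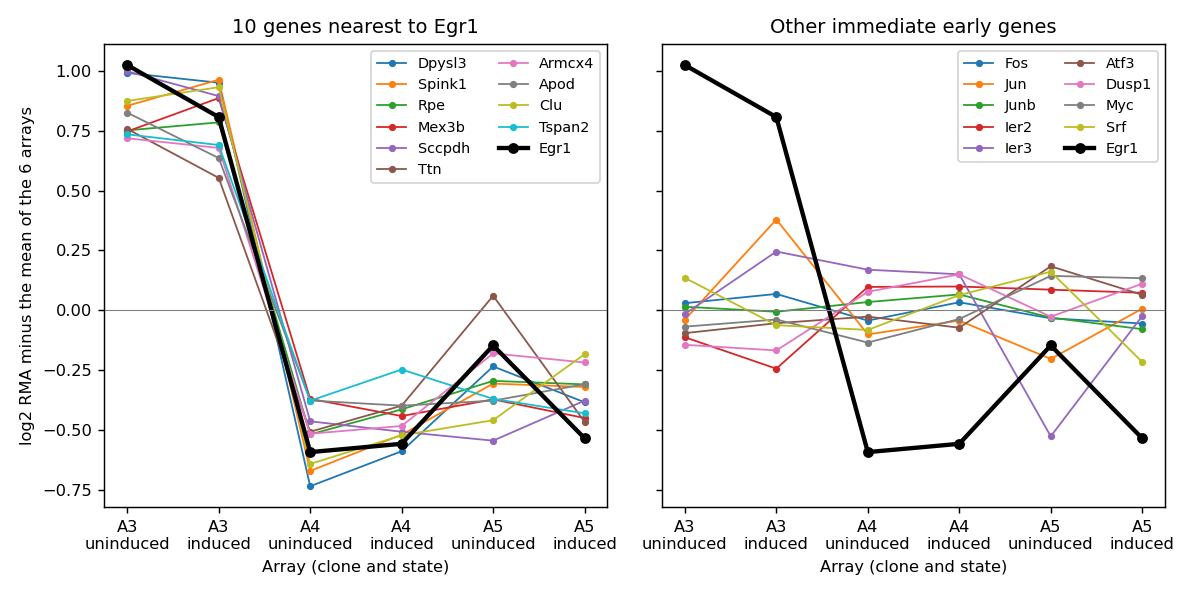
Log2 RMA level minus the mean of 6 arrays for Egr1 (black) with its 10 nearest genes (left) and with the other 9 members, 1 probe set each (right). The nearest genes, picked for this likeness, lie above 0.5 in both A3 arrays, as Egr1 does at 1.02 and 0.81, while the other members stay within 0.53 of 0.

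The wider immediate early genes were taken from a list of 36 further genes, all measured. None passed for induction in limma, in this list or in the others described here, with or without the clone as a block. Without the block 0 genes of any of these lists reached an unadjusted p under 0.05, against 430 of the 18193 genes. With it 2 of these 36 did, Klf6 and Gadd45g, and 855 of all genes. Of the 36 genes 19 were higher and 17 lower in induced cells, and the median difference was 0.01. The smallest p values belonged to Klf6, a zinc finger factor (0.18), Mafk, a small MAF protein (-0.10), and Arc, a cytoskeletal gene of neurons (-0.18), all with adjusted p of 1.00. The rest of the EGR family are named here after their values were seen. Egr2, with a mean of 3.04 that is under 5, had clone means of 3.22, 2.90 and 3.02 in A3, A4 and A5, the order of Egr1. The clone means of Egr3 were 6.37, 6.62 and 6.54 and those of Egr4 6.29, 6.29 and 6.31. The adjusted p of the clone term was 0.359, 0.445 and 0.986 for Egr2, Egr3 and Egr4.

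Between clones 3 of these 36 passed (8.33%), against 3.09% of the 18193 genes by 1 probe set each. Gadd45g, a growth arrest and stress gene, measured 7.60 and 7.70 for A3, 6.35 and 6.52 for A4, and 6.17 and 6.60 for A5, uninduced before induced (adjusted p = 0.00202). Ccn2, a matricellular protein gene that responds to SRF and YAP, had clone means of 9.79, 9.08 and 9.12 (adjusted p = 0.0184). Rhob, an early response GTPase gene, went the other way at 7.53, 8.13 and 8.02 (adjusted p = 0.0375). The call of Gadd45g held with each array left out in turn. That of Ccn2 was lost without the induced A3 array (0.178), and that of Rhob without the uninduced A3 (0.0647), induced A3 (0.293), uninduced A4 (0.0819) or induced A4 array (0.0836).

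Among 9 SRF cofactors and EGR1 regulators, only Nab2 passed the clone test, which 3.09% of the 18193 genes passed. NAB2 binds EGR1 and represses it, and its gene is a known EGR1 target. Uninduced and induced levels were 7.49 and 7.20 for A3, 6.68 and 6.54 for A4, and 6.93 and 6.62 for A5. Both A3 arrays were above the other 4, with clone means of 7.34, 6.61 and 6.78 and A3 higher by 0.65 ± 0.08 (SE, adjusted p = 0.0109). The call was lost without the uninduced (0.0846) or the induced A3 array (0.0773) and, at 0.0501, without the induction term. The differences with the smallest p for induction were those of Nab1, its paralogue (0.20), Mrtfa (-0.17) and Myocd (-0.15), the last 2 being coactivators of SRF. None passed. With the clone as a block Nab1 and Nab2 had an unadjusted p under 0.05, against 855 of the 18193 genes, Nab2 at a difference of -0.25.

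**Figure D4:**
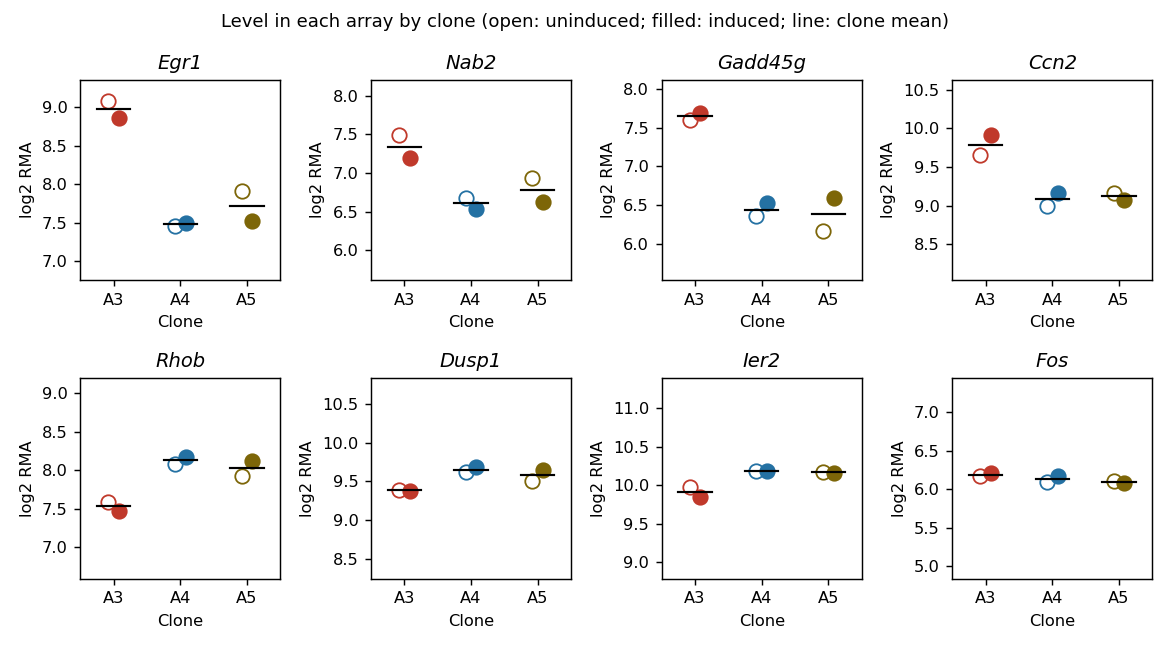
Log2 RMA level in each array by clone (open is uninduced, filled is induced, line is the clone mean). Shown are Egr1, 3 further members, and 4 genes that passed the clone test. These 4 are those that passed among the wider immediate early genes and the SRF cofactors and EGR1 regulators. Each panel spans an equal number of log2 units. Egr1, Nab2, Gadd45g and Ccn2 are higher in A3 than in A4 and A5, Rhob is lower, and Dusp1 and Ier2 are lower by under 0.3 without passing the test.

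Downstream of SRF, 17 actin and cytoskeleton genes were measured. None passed for induction. Their mean was lower in induced cells for 15 of 17 and higher for 2, against 51.5% lower among the 18193 genes, and the median difference was -0.07. The mean level of the list was 8.57, 8.49 and 8.54 in uninduced A3, A4 and A5. In the induced arrays it was 8.39, 8.46 and 8.48. The states were barely apart, at 8.487 in uninduced A4 and 8.481 in induced A5. The array medians were also lower after induction, from 5.037 to 5.030 (A3), 5.065 to 5.050 (A4) and 5.063 to 5.045 (A5). With array medians subtracted, 14 of 17 genes had a lower induced mean. Lower in all 3 clones were 4 genes, Cnn2 (-0.25), Flna (-0.20), Tgfb1i1 (-0.18) and Vcl (-0.12), against 13.3% of all genes. These encode a calponin, filamin A, an adaptor of focal adhesions and vinculin. The first 3 had an unadjusted p under 0.05 with the clone as a block, against 855 of the 18193 genes. The share rested on A3 in large part. Taken by clone, A3 had 13 lower genes with a median of -0.18, while A4 and A5 had 10 each, with medians of -0.02 and -0.03, and without the A3 arrays 10 of 17 had a lower mean. The largest single difference was that of Myl9, a myosin light chain, at -0.69 in A3, where A4 read -0.04 and A5 0.05.

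**Figure D5:**
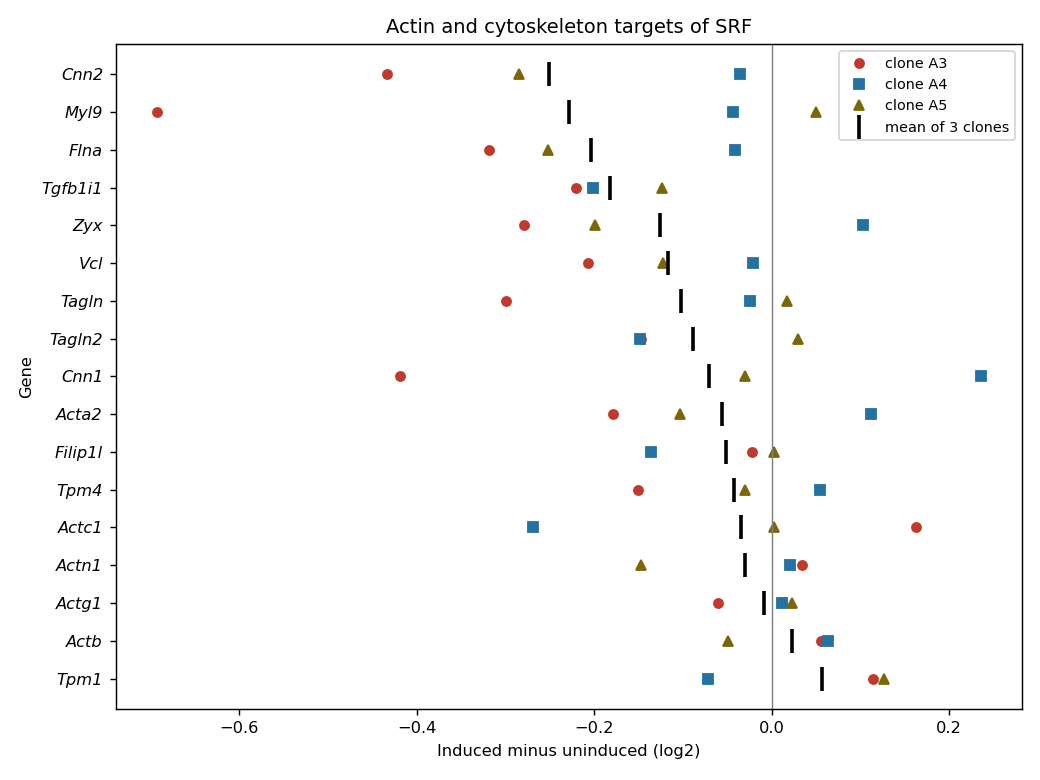
Induced minus uninduced (log2) of 17 actin and cytoskeleton targets of SRF in clone A3 (circles), A4 (squares) and A5 (triangles), with the mean of the 3 clones as a bar. The means of 15 genes lie below 0, and the A3 points lie farthest to the left for most of these.

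Upstream, 13 of 19 listed genes of the ERK cascade had a probe set of their own, and none passed for induction. The smallest p values were those of the FGF receptor gene Fgfr1 (-0.16), the scaffold Ksr1 (-0.15) and the kinase Map2k1 (0.08). The clone test called 2 of the 13, against 3.09% of the 18193 genes. Fgf4, the ligand that ES cells make, had clone means of 10.16, 9.65 and 9.69 (adjusted p = 0.0287), and Sos2, an exchange factor for RAS, had 4.44, 5.08 and 4.88 (adjusted p = 0.0469). The call of Fgf4 was lost without any 1 of the 6 arrays (adjusted p of up to 0.219). That of Sos2 was lost without uninduced A3 (0.202), uninduced A4 (0.106) or induced A3 (0.219), and with array medians subtracted (0.0519), and its mean of 4.80 is under 5. Of 15 AP-1 and MYC partners 0 passed either limma test. For the clone term 4 of them had an unadjusted p under 0.05, against 3163 of the 18193 genes. The smallest p values for induction were those of Mxd1 (0.23) and Mxi1 (0.11), which encode antagonists of MYC, and of Batf3 (0.16), a partner of JUN. With the clone as a block Mxd1 had an unadjusted p under 0.05, against 855 of the 18193 genes.

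Primitive endoderm, a cell type that ES cultures can shed, was followed through 10 markers, of which 5 had a mean of at least 5. Their mean level was 6.01 to 6.22 in the arrays, at 6.13 and 6.02 (A3), 6.01 and 6.05 (A4), and 6.22 and 6.19 (A5), uninduced before induced. Lama1 (8.39, 7.69 and 8.05, adjusted p = 0.0393) and Dab2 (4.99, 4.90 and 5.40, adjusted p = 0.0390) passed the clone test, against 3.09% of the 18193 genes. Lama1 was highest in A3 and Dab2 in A5. Dab2 was lost without any 1 of the 6 arrays (0.0728 to 0.174), and Lama1 without uninduced A3 (0.148), uninduced A4 (0.138), induced A3 (0.0568) or induced A5 (0.0516). Without the induction term both were lost, at 0.0781 for Lama1 and 0.0714 for Dab2. With the clone as a block Sox7 (-0.36) and Pdgfra (0.31) had an unadjusted p under 0.05 for induction, against 855 of the 18193 genes. Their differences had opposite signs, and the mean of Pdgfra, at 4.13, is under 5. The part of such cells in the level of Egr1 was not tested. In RNA from whole cultures, fewer cells that express a gene and less RNA per cell cannot be told apart.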

How the data were processed

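Total RNA of 6 cultures was hybridized to Affymetrix arrays, 1 array each. For each probe set the authors deposited a log2 RMA value, made with the affy package (background correction, quantile normalization, summarization). The version, and which arrays were normalized together, are not given in the sources used here. Groups, clones and hours were taken from the labels. Of the probe sets, 64 controls were set aside and 45037 were tested without an intensity filter. The array's table gave 1 symbol for 34945, several for 932 and none for 9160, and 34741 matched RefSeq by Entrez identifier, including the 12 of the members.

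The induction contrast was fitted in limma 3.58.1, R 4.3.3 (lmFit and eBayes, two-sided, Benjamini-Hochberg over all probe sets, threshold 0.05), without a block, since the methods name a test without pairing. Clones were compared by the moderated F-test of the clone term with induction in the model. After group means were removed, arrays of the same clone correlated at 0.524 (A3), 0.376 (A4) and 0.210 (A5), and those of different clones at -0.407 to 0.0689, so that the numbers in the labels, which stand for clones, pair the arrays. The p-values of the induction fit without a block measure the spread between 3 clones of 1 parental line. Those of the clone term are set against the scatter left between the 2 arrays of a clone, with induction in the model. The same holds for the SE of A3 minus the other clones, and for the induction fit with the clone as a block. The number of arrays limits the precision.

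The members and lists were chosen with earlier results of these data known. From each list were named up to 3 genes with the smallest p for induction and up to 3 with the largest clone range past the threshold, 1 probe set per gene (highest mean), and the 10 genes nearest to Egr1 among those whose mean was 5 or more. Vcl, Myl9 and Egr2 to Egr4 were named after their values were seen. Figures were drawn with matplotlib 3.10.9. Alternatives were another test, an intensity filter, a variance trend, median scaling, and arrays or clones left out.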

Additional observations from a re-analysis of the deposited data

How the results depend on the processing

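The count of members called for induction was 0 under all 15 alternatives, and so was that of all probe sets. With the replicate block (clone) 0 were called, with a smallest adjusted p of 0.843, and both the methods' t-test and a paired t-test called 0. The clone count of the 11 other probe sets was 0 except with the variance trend, where it was 2. Over all probe sets 980 differed between clones, against 1885 of those with a mean of at least 5, 2641 with the variance trend, and 26 (without A3) to 1427 (without A5) when arrays were left out, with 413 and 248 without the uninduced or the induced A3 array and 633 without uninduced A4. The cause was not tested. Egr1 in A3 exceeded the other clones by 1.29 to 1.46 under the alternatives. The median r over pairs of members was -0.03, 0.0675 with clone means removed and -0.0792 without A3. The count of SRF targets with a lower induced mean, whose alternatives were chosen after seeing the data, ran from 10 to 15 of 17.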
